A study of Homo sapiens with 6 samples.

Results

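The regions described here are RBM8A peaks on the short arm of chromosome 1, the arm whose tip carries the gene-rich band 1p36. They were taken from 3 peak lists made from anti-RBM8A immunoprecipitates of AGS, an established wild-type human gastric adenocarcinoma cell line in normal growth with no treatment. A peak belongs to the arm when its summit, the base of highest coverage, lies on chromosome 1 before position 125000000. Peaks touching 1570603 to 1655777 or 16840000 to 16980000, where very wide peaks lie, were left out. This gave 308 of the 5437 peaks of the series, namely 79 in replicate 1, 132 in replicate 2 and 97 in replicate 3. The windows left out held 4, 4 and 3 peaks, which are counted below among the other peaks of each list, called the rest of the list. No such windows were left out of the rest or of other arms. The series also holds 3 input samples of the same cells, whose data were not analysed here, and no immunoprecipitate with a control antibody. RNA bound by RBM8A and RNA held on the beads for other reasons therefore cannot be told apart. Nothing in the labels ties the replicates to separate cultures, so p-values measure only the spread between these samples, which can be technical. Positions refer to hg19 and count from 1. No strand is given.

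RBM8A, also known as Y14, pairs with MAGOH and, together with the helicase EIF4A3, forms the core of the exon junction complex. Splicing leaves this complex on the RNA a short distance upstream of each new exon-exon junction, and it stays there until translation, with roles in export, localisation and the nonsense-mediated decay of transcripts. Immunoprecipitation of RBM8A is thus meant to recover spliced RNA, but whether the RNA recovered here was spliced was not tested. A peak marks a stretch of genome whose RNA was recovered more than the level the peak caller expected there.

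Peak density was uneven along the arm and was highest within the 50 Mb nearest the tip. The first 10 Mb held 20, 24 and 15 peaks in replicates 1, 2 and 3, a mean of 1.98 ± 0.455 peaks per Mb (SD, n = 3). From 10 to 20 Mb the mean was 0.778 ± 0.234 peaks per Mb, with 5, 9 and 9 peaks. The highest mean, 2.53 ± 1.01 peaks per Mb, lay from 20 to 30 Mb, where the lists held 16, 36 and 24 peaks. The replicates differed in the order of these bins: the first was the fullest in replicate 1, the third in replicates 2 and 3. The density was thus not a steady decline from the tip. Beyond 30 Mb the mean was 1.60 ± 0.173 and then 1.20 ± 0.557 peaks per Mb in the next bins of 10 Mb. Of all peaks on the arm, 79.7%, 79.5% and 76.3% had their summit before 50 Mb.

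Beyond 50 Mb the arm was sparse. The bin from 50 to 60 Mb held 3, 4 and 1 peaks, that from 80 to 90 Mb 0, 2 and 0, and that from 100 to 110 Mb 0, 1 and 0. The fullest bins beyond 50 Mb were those from 110 to 120 Mb, with 3, 6 and 10 peaks, and from 60 to 70 Mb, with 4, 4 and 8. Replicate 3 held the most in each, and replicate 1 had fewer peaks in the former than in the latter. Of the 8 peaks of replicate 3 in the latter, 4 lay in 1 region between 61 and 62 Mb, where replicate 1 listed 1 peak. Divided into windows of 1 Mb, the arm had 56 windows with a peak in any list and 28 with a peak in every list. A further 69 windows had no peak in any replicate.

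**Figure D1:**
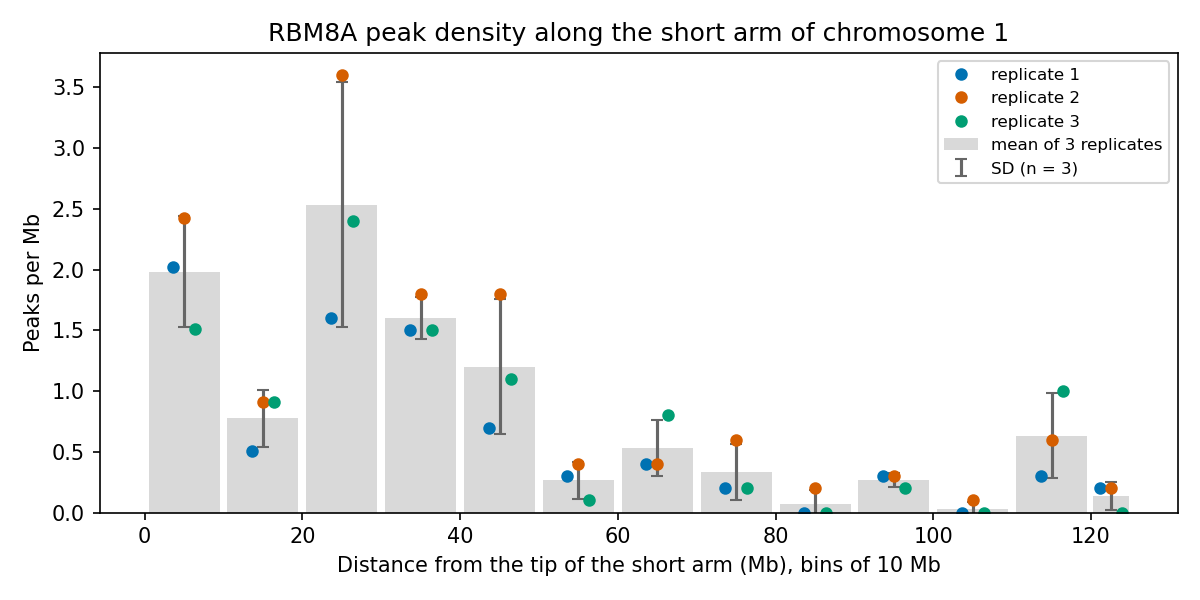
Peaks per Mb (vertical axis) in bins of 10 Mb by distance from the tip of the arm (horizontal axis, Mb; the last bin is 5 Mb), with replicates as points, the mean as a bar and the SD (n = 3) as a whisker. The mean is 2.53 in the third bin and 1.98 in the first, dips to 0.778 between them, and stays at or below 0.633 in every bin beyond 50 Mb.

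Set as a single comparison, the distal 30 Mb, which hold band 1p36, were denser than the rest of the arm in every replicate. Densities were 1.38, 2.32 and 1.61 peaks per Mb in the distal part and 0.40, 0.663 and 0.516 in the rest. The ratios were 3.44, 3.49 and 3.13, so they were alike although replicate 2 held many more peaks. The mean log2 ratio was 1.74 ± 0.0874 (SD, n = 3; exact two-sided sign-flip permutation p = 0.25, the smallest that 3 replicates allow). The ratio depended on where the arm was divided, with a mean log2 ratio of 0.975 at 20 Mb and 2.47 at 50 Mb, and it was above 0 at each. Neither the number of genes along the arm nor their expression in AGS cells entered these densities, and unsequenced bases were not subtracted, so their part in the decline was not tested.

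The fullest windows of 1 Mb lay in the distal part. The window from 1 to 2 Mb held 13, 14 and 7 peaks, even without the cluster left out there, in 17 separate regions, and 3 of the 17 recurred in every replicate. The window from 24 to 25 Mb held 7, 8 and 6 peaks in 7 regions, and 6 of the 7 were found in all replicates. The windows from 21 to 22 Mb and from 22 to 23 Mb each held 3, 6 and 3 peaks, with 2 regions of all replicates in the former and 0 in the latter. The next place was shared by 4 windows of 10 peaks, starting at 8, 17, 33 and 43 Mb. A full window thus did not always mean positions that recurred.

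The replicates differed in how many peaks they listed. The arm held 5.34%, 6.13% and 5.38% of lists of 1480, 2155 and 1802 peaks, a mean share of 5.62% ± 0.442 (SD, n = 3), so the shares were closer to each other than the counts. Density over the arm was 0.633, 1.06 and 0.777 peaks per Mb. Coverage at the summits was low: the pileup, the number of fragments over the summit, had a median of 6, 7 and 7. It was 4 or 5 in 30, 50 and 37 peaks and at least 10 in 24, 37 and 31. The latter were 30.38%, 28.03% and 31.96% of the arm's peaks, against 23.55%, 25.36% and 23.93% of the rest of each list. Pileups of 4 or 5 made up 37.97%, 37.88% and 38.14% on the arm, against 42.54%, 39.25% and 43.05% of the rest. The deep class was thus larger on the arm, and the shallow class smaller, in every replicate. These differences in share were not tested. A pileup of 7 has an exact 95% Poisson interval of 2.81 to 14.4, which covers counting error only. Sequencing depth is unknown, since the lists hold no read totals.

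Fold enrichment is the authors' value for the summit pileup over the level their caller expected, and it ranks peaks only within a list. On the arm its median was 4.22, 4.10 and 3.97, against 4.15, 4.16 and 3.97 in the rest of each list. Its highest value was 39.2, 10.0 and 9.40. A −log10 q of at least 5 was reached by 14 of 79, 20 of 132 and 15 of 97 peaks, or 17.7%, 15.2% and 15.5%, beside 13.4%, 15.6% and 16.9% of all peaks in the lists. The shares on the arm were near those of the whole lists. The mean log2 pileup differed from that of the rest of the list by 0.0721 ± 0.0869 (SD, n = 3; exact two-sided sign-flip permutation p = 0.5), above 0 in 2 of 3 replicates. The expected level lay at the lowest value of its list in 48.1%, 45.5% and 29.9% of the arm's peaks, and in 50.6%, 42.4% and 40.7% of the rest of each list. Replicate 3 thus had fewer such peaks on the arm than in its list.

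Widths on the arm ran from 405 to 148029 bp in replicate 1, from 353 to 148186 bp in replicate 2 and from 397 to 148032 bp in replicate 3. The median was 2025, 1726.5 and 1621 bp, against 1869, 1541 and 1826 bp in the rest of each list. The arm was wider in replicates 1 and 2 and narrower in replicate 3. The mean difference in log2 median width was 0.0359 ± 0.182 (SD, n = 3; exact two-sided sign-flip permutation p = 1), and it fell to -0.0039 without replicate 1 and -0.0281 without replicate 2. Peaks narrower than 600 bp numbered 12, 19 and 13 on the arm, against 182 of 1401, 357 of 2023 and 212 of 1705 in the rest of the lists. Peaks of at least 10 kb numbered 9, 7 and 7, or 11.4%, 5.30% and 7.22%, against 11.2%, 8.30% and 9.15% of the rest. They held 62.0%, 46.2% and 62.3% of the 420, 573 and 584 kb covered on the arm, and 69.7%, 63.0% and 63.3% of what the rest of the lists covered. The rest includes the peaks left out of the arm, whose part in these width comparisons was not tested. Whether an intron bridged by a spliced read was counted as covered is not stated in the sources used here.

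**Figure D2:**
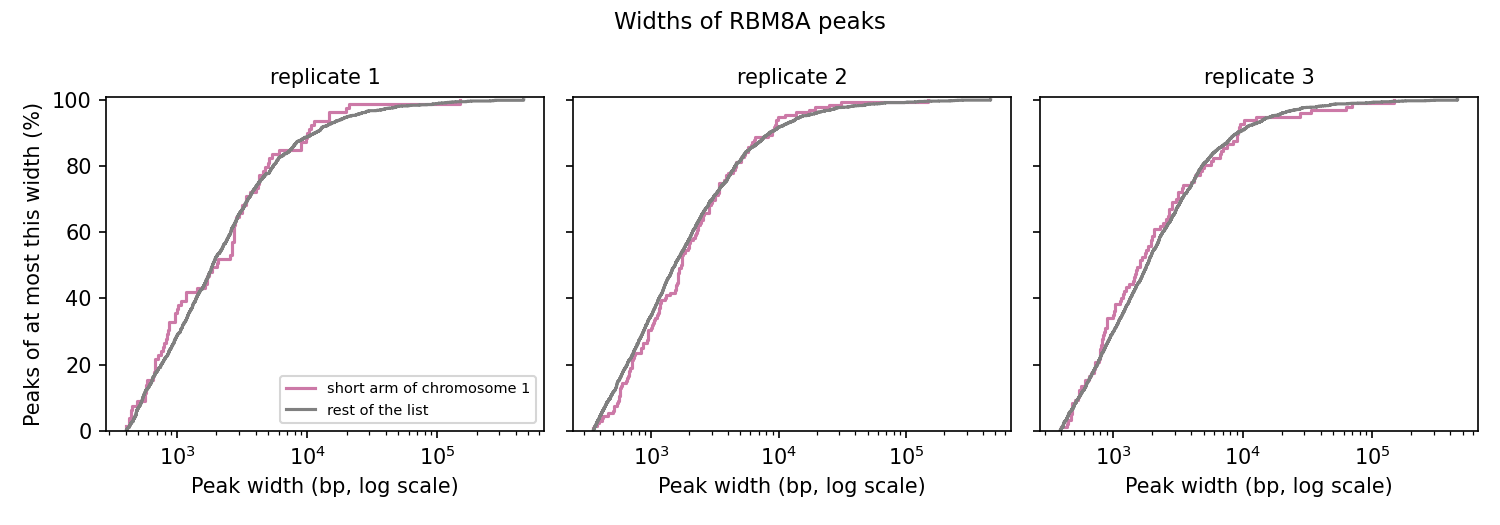
Share of peaks at or below each width (vertical axis, %) against peak width (horizontal axis, bp, log scale) for the short arm of chromosome 1 and the rest of the list, 1 panel per replicate. The curves lie close together, with medians of 2025 and 1869 bp in replicate 1, 1726.5 and 1541 bp in replicate 2, and 1621 and 1826 bp in replicate 3.

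The summit often sat at the side of a peak. It lay in the first or last 10% of the width in 43.0%, 43.9% and 51.5% of the arm's peaks, and in 44.3%, 43.7% and 42.7% of the rest. The gap between the arm and its list was widest in replicate 3.

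Recurrence was examined next, since a position found in every replicate does not rest on 1 library. Joining overlapping peaks of the 3 lists gave 192 regions on the arm. Of these, 29 (15.1%) were found in all replicates, 40 (20.8%) in a pair and 123 (64.1%) in 1 replicate. In the whole series 12.1% of 3584 regions were found in all replicates, and the difference between these shares was not tested. The pairs were uneven: 20 regions were shared by replicates 2 and 3 alone, 12 by replicates 1 and 2 alone, and 8 by replicates 1 and 3 alone. Replicate 2, with the longest list, held 60 of the 123 regions found once, replicate 3 held 37 and replicate 1 held 26.

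Counted by peak, 31 of 79, 30 of 132 and 29 of 97 were overlapped by at least 1 bp in both other lists. These shares of 39.2%, 22.7% and 29.9% stood beside backgrounds of 32.4%, 22.2% and 26.5% over all peaks of the lists. The arm exceeded the rest of its list by 7.26, 0.582 and 3.62 percentage points, a mean of 3.82 ± 3.35 (SD, n = 3; exact two-sided sign-flip permutation p = 0.25, the smallest possible). The 3 values are not independent, because each list serves as the other list for its neighbours. With summits required within 100 bp the mean was -0.611 points. With the left-out peaks returned to the arm it was 6.42 points. At a −log10 q of at least 5 it was 1.33 points, and replicate 1 was below 0. At a fold of at least 5 it was 3.14 points, and replicates 1 and 2 were below 0. With 1 replicate left out, recurrence can be counted only in the 1 list that remains, and by that other measure the mean was 6.87, 6.88 and 1.97 points without replicates 1, 2 and 3.

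Recurring peaks were the deeper ones. Peaks overlapped in both other lists had a median pileup of 12, 13 and 13 fragments, those overlapped in 1 other list a median of 6 in each replicate, and those overlapped in none a median of 5 in each. Of the peaks with a pileup of 10 or more, 18 of 24, 22 of 37 and 22 of 31 recurred in both other lists, a mean of 68.5% ± 8.06 (SD, n = 3). Of those with a pileup of 4 or 5, 3 of 30, 0 of 50 and 3 of 37 did, a mean of 6.04% ± 5.31. In the rest of the lists the same classes had means of 58.7% ± 8.07 and 11.2% ± 3.42. A deep summit also passes the caller's q cutoff more readily in another list. Its part in these shares was not tested. Fold did not separate the groups in the same way: its median was 3.78, 4.14 and 3.97 in peaks recurring in both other lists and 4.22, 4.29 and 3.98 in peaks recurring in none.

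**Figure D3:**
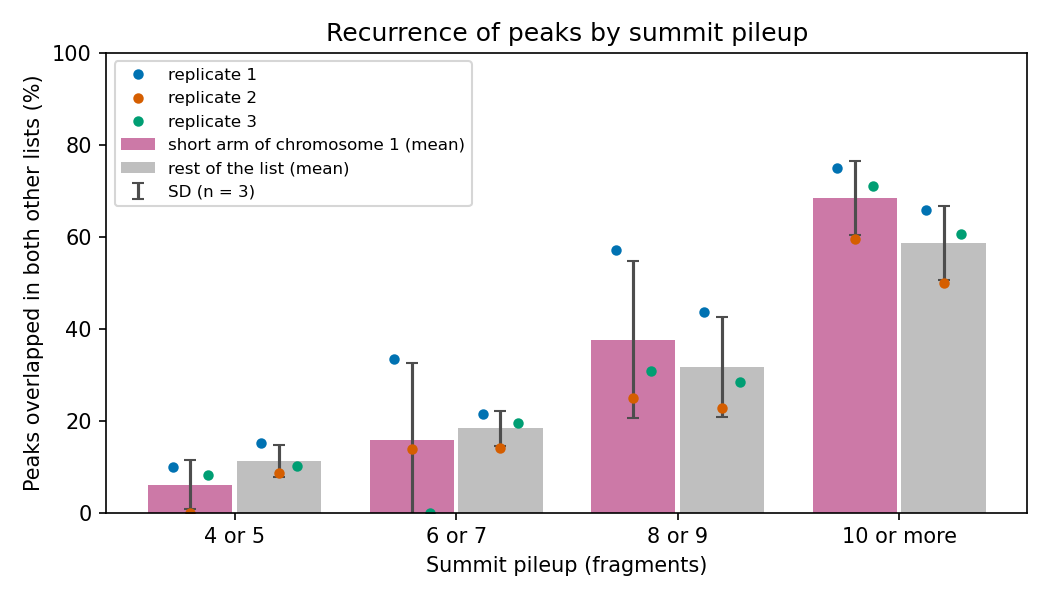
Share of peaks overlapped in both other lists (vertical axis, %) by summit pileup (horizontal axis, fragments) on the short arm of chromosome 1 and in the rest of the list, with replicates as points, the mean as a bar and the SD (n = 3) as a whisker. On the arm the mean rises from 6.04% at 4 or 5 fragments to 68.5% at 10 or more.

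Along the arm, recurrence followed density only loosely. Of the 29 regions found in all replicates, 16 lay in the distal 30 Mb, 8 between 30 and 50 Mb, and 5 beyond 50 Mb. As shares of the regions in each stretch these were 16.2%, 16.0% and 11.6%. Within the stretches the shares varied, on small counts. They were 6.25% (1 of 16 regions) from 10 to 20 Mb and 20.8% (10 of 48) from 20 to 30 Mb. From 50 to 60 Mb the share was 0% (0 of 8). It was 27.8% (5 of 18) from 60 to 100 Mb and 0% (0 of 15) from 110 to 120 Mb. By peak, 41.5%, 24.6% and 33.3% of distal peaks recurred in both other lists, against 36.8%, 20.6% and 26.5% in the rest of the arm. The mean difference was 5.14 ± 1.47 percentage points (SD, n = 3; exact two-sided sign-flip permutation p = 0.25, the smallest possible). It was 34.5 points when only peaks of a −log10 q of 5 or more were kept and -0.155 points among peaks under 10 kb. The former value rests on 14, 20 and 15 peaks of the arm and on 3 recurrent regions, all in the distal part. Counted instead as overlap in the 1 list that remains when replicate 2 is left out, the difference was -4.41 points. Peaks with a pileup of 10 or more were also more frequent in the distal part, by 12.0 ± 3.59 percentage points, and their part in the difference was not tested.

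The locus of HP1BP3, which encodes heterochromatin protein 1 binding protein 3, a chromatin protein related to the linker histone H1, held 2 of the 29 recurrent regions. The gene name comes from the definition of these regions and not from an annotation of hg19. The first region ran from 21071408 to 21076298. Its peak had a summit pileup of 19 fragments in replicate 1, 19 in replicate 2 and 18 in replicate 3, with 95% Poisson intervals of 11.4 to 29.7 for 19 and 10.7 to 28.4 for 18. The 3 summit pileups were thus nearly equal. The fold was 6.42, 9.24 and 9.40, at expected levels of 2.11, 1.17 and 1.02 fragments. This region was 1 of only 3 of the arm with a −log10 q of at least 5 in every replicate, at 9.43, 14.2 and 13.9. The peaks of replicates 1 and 3 nearly coincided, from 21071431 to 21074077 and from 21071408 to 21074125. The peak of replicate 2 started at 21071779 and ran on to 21076298, with its summit 557 bp from that of replicate 3.

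The second region of this locus ran from 21103124 to 21106344. It lay 26825 bp beyond the first and had pileups of 7, 9 and 14, lower than those of the first in each replicate. Its borders agreed closely, with starts spread over 24 bp and ends over 67 bp. The fold was 5.62, 3.64 and 7.42. Between these regions replicate 2 alone listed a peak of 8234 bp from 21083668 to 21091901, with a pileup of 7, and one of 2578 bp from 21100000 to 21102577, with a pileup of 9. All 8 peaks of the locus span 34.9 kb, less than the 47.0 kb length of HP1BP3 in the RefSeq table of GRCh38.p14, where its protein-coding neighbours are SH2D5 and EIF4G3. This comparison of lengths does not place the peaks in the gene. Which exons the peaks cover was not analysed here.

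**Figure D4:**
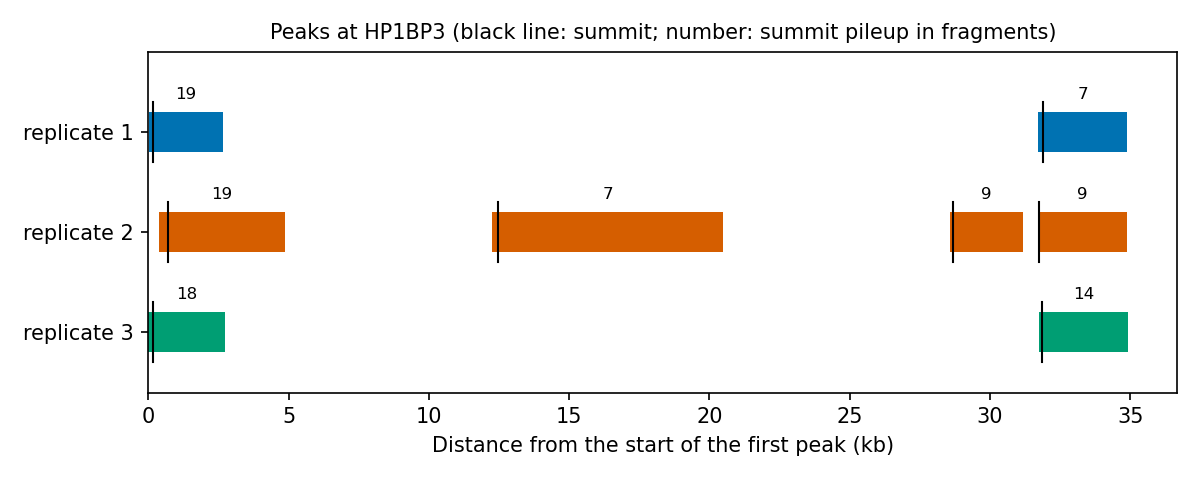
Peaks at HP1BP3 in the 3 replicates (rows) by distance from the start of the first peak (horizontal axis, kb); bars are peaks, black lines are summits and numbers are summit pileups in fragments. Every replicate has a peak at each end of the locus, with pileups of 18 or 19 at the first and 7 to 14 at the second, and replicate 2 alone has peaks between them.

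The deepest and widest recurrent region of the arm ran from 17067319 to 17215504, a span of 148186 bp covered by 1 peak in each replicate. Its starts fell within 27 bp of each other and its ends within 130 bp. Pileups were 59, 56 and 72, with overlapping 95% Poisson intervals of 44.9 to 76.1, 42.3 to 72.7 and 56.3 to 90.7. The folds nevertheless differed widely, at 39.2, 9.85 and 5.45, with expected levels of 0.532, 4.79 and 12.4 fragments. The summits lay at 17072781, 17067337 and 17068277, so they spread over 5444 bp and the caller's expected level was read at different bases. This region starts close after one of the windows left out. It too reached a −log10 q of 5 in every replicate, as did the region from 24987236 to 24996479.

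Several recurrent regions of high pileup were narrow. The region from 26799021 to 26800640 had pileups of 31, 41 and 40 but folds of only 2.49, 3.17 and 2.17, with expected levels of 11.8, 12.2 and 17.9. In the region from 24019188 to 24020327 the pileups were 24, 35 and 32, with folds of 7.21, 2.40 and 3.08. Here the expected level was 2.47 in replicate 1, against 13.98 and 9.70 in replicates 2 and 3. The region from 35652845 to 35654491 had pileups of 14, 30 and 30, and replicate 1 listed it as a pair of peaks. Its folds were 3.62, 2.45 and 4.06.

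Between 43148506 and 43158506 a recurrent region of 10001 bp had pileups of 34, 32 and 31. Its lowest pileup equalled that of the region from 26799021. Among the recurrent regions only the one from 17067319 had a higher lowest pileup. Folds of this region of 10001 bp were 3.40, 9.09 and 2.32. The expected level was 9.30, 2.63 and 12.8 fragments in the same order, and the summits spread over 741 bp. Its starts lay within 7 bp of each other, whereas its ends spread over 690 bp.

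A group of 4 neighbouring recurrent regions lay together between 24975486 and 24997846, separated by gaps of 2591, 6380 and 411 bp. The first, to 24976486, had pileups of 9, 12 and 13, and the second, from 24979078 to 24980855, had 12, 18 and 13. The third, from 24987236 to 24996479, had 17, 14 and 24 fragments. It was a peak of 9244 bp in replicate 3, while replicate 1 listed a shorter one inside it and replicate 2 a pair. The last, from 24996891 to 24997846, had 18, 14 and 10. No replicate was highest in all 4.

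Closely spaced recurrent regions were also found far from the tip. A pair between 67886016 and 67895506, 2327 bp apart, had pileups of 13, 14 and 10 in the first and 13, 13 and 16 in the second. In the second, folds were 2.68, 3.11 and 3.04, and the summits of all replicates lay within 47 bp. Another pair, from 93303283 to 93305977 and from 93306383 to 93307201, lay 405 bp apart. Its pileups were 10, 12 and 23 in the first and 14, 10 and 11 in the second, and the latter was the narrowest recurrent region of the arm, at 819 bp. The remaining recurrent region beyond 50 Mb ran from 70703201 to 70712792, with pileups of 14, 11 and 14 and folds of 6.61, 3.60 and 5.92. No recurrent region lay past 93307201.

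Near the tip, the region from 1482348 to 1509903 had pileups of 18, 13 and 13. Its folds were 8.38, 10.0 and 2.75, and the peak of replicate 3 was 27497 bp wide, against 9715 and 9911 bp in the others. The region from 1414039 to 1447668 joined 3 peaks of replicate 1 and 4 of replicate 2 with a single peak of 33614 bp in replicate 3. Its best peaks had pileups of 7, 6 and 10. From 8923350 to 8926742 the pileups were 12, 17 and 19, with folds of 4.40, 2.88 and 3.57. The best peaks of the 3 lists had 34.6%, 2.45% and 20.04% of their joint span in common at these loci, in the order given.

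**Figure D5:**
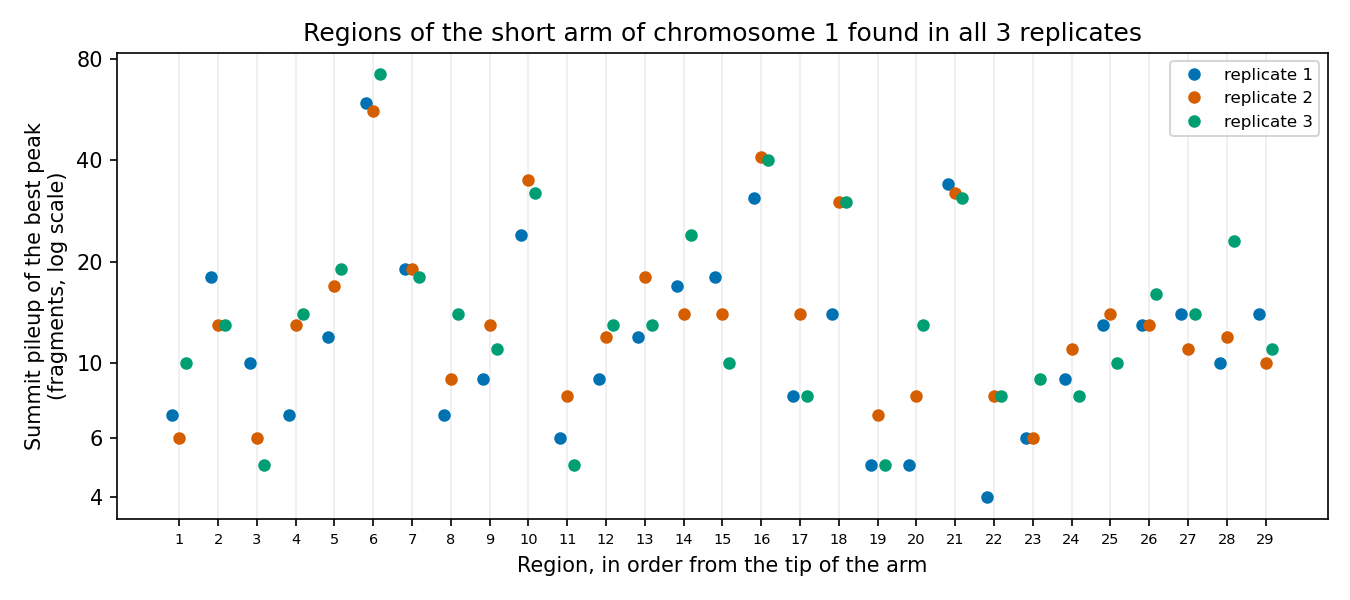
Summit pileup of the best peak (vertical axis, fragments, log scale) in each of the 29 regions found in all 3 replicates, in order from the tip of the arm (horizontal axis), with 1 point per replicate. The sixth region, of 148186 bp, has the highest pileups at 59, 56 and 72, and 16 of the 29 regions have at least 10 fragments in every replicate.

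Across the 29 recurrent regions, the lowest of the 3 pileups ranged from 4 to 56 with a median of 10, and 16 regions had at least 10 fragments in every replicate. In 24 of them each list had a single peak. There the starts spread over a median of 160.5 bp and the ends over a median of 151 bp, and 5 of the 24 had both borders within 100 bp. Summits agreed less, with a median spread of 556.5 bp and 2 of 24 within 100 bp. The region from 1747471 to 1749110 shows this contrast: its starts fell within 5 bp and its ends within 14 bp, while the summits spread over 556 bp. Another, from 45981618 to 45984476, had ends within 10 bp, starts within 105 bp and summits within 402 bp. In all 29 regions the best peaks of the 3 lists shared at least 1 base.

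The long arm of the same chromosome and the short arm of chromosome 19 were compared with these peaks. The long arm of chromosome 1 had 110, 147 and 139 peaks, or 0.885, 1.18 and 1.12 per Mb. Unsequenced bases were not subtracted from the length of any arm, so their part in the density comparisons was not tested. The short arm was less dense in each replicate, with a mean log2 ratio of -0.39 ± 0.199 (SD, n = 3; exact two-sided sign-flip permutation p = 0.25, the smallest possible). Its median width was above that of the long arm in 3 of 3 replicates, by 0.231 ± 0.216 on the log2 scale (exact two-sided sign-flip permutation p = 0.25), though by only 2025 against 2023 bp in replicate 1. Recurrence in both other lists was 33.6%, 23.1% and 27.3% on the long arm, and the short arm differed from it by 2.59 ± 3.00 percentage points (exact two-sided sign-flip permutation p = 0.5). Counted as overlap in the 1 list that remains when replicate 3 is left out, it was -2.21 points. Mean log2 pileup differed by 0.0809 ± 0.115, above 0 in 2 of 3 replicates (exact two-sided sign-flip permutation p = 0.5).

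The short arm of chromosome 19, counted up to 27 Mb, held 70, 116 and 80 peaks, or 2.59, 4.30 and 2.96 per Mb. Here too, unsequenced bases were not subtracted. The short arm of chromosome 1 was less dense by a mean log2 ratio of -2.00 ± 0.0566 (SD, n = 3; exact two-sided sign-flip permutation p = 0.25). Median widths on the short arm of chromosome 19 were 1290.5, 1176 and 1478.5 bp. Peaks on the short arm of chromosome 1 were the wider ones in 3 of 3 replicates, by 0.446 ± 0.275 on the log2 scale. They also recurred more often in 3 of 3 replicates, by 6.63 ± 4.92 percentage points, and had a lower mean log2 pileup in 3 of 3, by a mean difference of -0.134 ± 0.0462. The exact two-sided sign-flip permutation p was 0.25 for each of these, the smallest possible. Counted as overlap in the 1 list that remains when replicate 1 is left out, the difference in recurrence was -0.0571 points. With 3 replicates, no comparison given here could reach a p below 0.25.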

How the data were processed

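RNA immunoprecipitated with an anti-RBM8A antibody was sequenced by the authors in 3 replicates, and each gave 1 list in the narrowPeak layout, called per replicate and not on a pool. The submitters' processing notes name HISAT2, SAMtools, GATK, FastQC and MACS2. Their versions and settings and the caller's control sample are not stated there or in the labels. In the deposited lists a peak has a fold, the ratio of summit pileup to expected level, and −log10 values of p and q (p-value and q-value), all by the authors' caller. The deposited score is a rounded form of the −log10 q and was not used. The notes name hg38, whereas sequence names in the lists are those of hg19, the build assumed here.

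Summit pileups were recovered as whole numbers up to 400 that give the authors' fold, with 1 added to pileup and level, and their Poisson p within 0.0005. This succeeded for 5426 of 5437 peaks, the other 11 being on an unplaced scaffold and set to 400. Expected levels within 0.5% of the lowest in a list count as lowest. Peaks overlapping by at least 1 bp were joined into regions. The best peak of a region in a list is the one of highest pileup. Each comparison is a difference within a replicate, tested by exact two-sided sign flips over 3 replicates. Peaks along a chromosome are not independent and were not tested as such.

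The regions named were the HP1BP3 locus, the 15 recurrent regions with the highest lowest-of-3 pileup, the 3 widest, the 3 narrowest and the 5 fullest windows of 1 Mb, and the 5 deepest peaks found in 1 list. Those from 1747471 and 45981618 were added after their values were seen. The region from 93303283 met none of these choices and was described with its neighbour from 93306383. The members and these choices were made with earlier results of these data known. No genome or annotation of hg19 was used, so no peak was placed in a gene, exon or intron by coordinates and no sequence is shown. The scripts were tested on simulated data. Chromosome lengths came from pyranges 0.1.4, tests from scipy 1.17.1 under Python 3.11.15, tables from pandas 2.3.3 with numpy 2.4.6, and plots from matplotlib 3.10.9. As alternatives, stricter thresholds on q and on fold, overlap of at least 50% of both peaks or summits within 100 bp, exclusion of peaks of 10 kb or more, counting peaks within 5 kb once, other divisions of the arm, return of the left-out clusters, and omission of each replicate were tried.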

Additional observations from a re-analysis of the deposited data

How the results depend on the processing

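The decline in density kept its direction under every setting run, with mean log2 ratios between 0.975 (divided at 20 Mb) and 2.47 (divided at 50 Mb). Peaks per replicate averaged 103, but 16.3 at a −log10 q of 5 or more and 22.0 at a fold of 5 or more, filters that keep fewer peaks by construction. Regions found in all replicates numbered 3 with either filter, 19 when overlap had to reach 50% of each peak, and 37 to 49 as regions of both remaining lists when 1 replicate was left out. Of the main 29 regions, those kept at the stricter q were those from 17067319, 21071408 and 24987236, and at the stricter fold those from 17067319, 21071408 and 70703201, the last through a peak of replicate 2 other than its deepest there. With 1 replicate left out, recurrence was counted in the 1 list that remained, so 2 choices changed at once in each such recurrence value below. The difference in recurrence from the rest of the list was -0.611 percentage points for summits within 100 bp and 1.97 to 6.88 without 1 replicate. It was 6.42 with the left-out clusters, 6.48 when peaks of 10 kb or more were dropped and 2.15 with 50% overlap. At the stricter q it was 1.33, with -1.94, 0.76 and 5.17 in replicates 1, 2 and 3. At the stricter fold it was 3.14, with -1.79, -1.68 and 12.9. The difference in recurrence between the distal part and the rest of the arm was 34.5 at the stricter q and 14.0 at the stricter fold. It was 9.56 with the left-out clusters, 3.70 with 50% overlap and -0.794 for summits within 100 bp. It was -0.155 when peaks of 10 kb or more were dropped, and from -4.41 to 8.23 with 1 replicate left out. Without 1 replicate, the log2 width difference was -0.0039, -0.0281 and 0.140 (leaving out replicates 1, 2 and 3). The difference in recurrence ranged from -2.21 to 7.84 points against the long arm and from -0.0571 to 6.39 points against the short arm of chromosome 19. The cause of these changes was not tested. Leaving out a replicate of the comparisons with the other arms was added after the data were seen. No paired analysis was possible because all files used here are of immunoprecipitates, so none could be set against the input of the same number. Low pileups, of 4 or 5 fragments in 30, 50 and 37 of the arm's peaks, limit what a single peak can show.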

Other observations

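The stretch from 110 to 120 Mb carried 15 regions. None of these recurred in all replicates, 4 did in a pair, and 11 were found in 1, where 29 of the arm's 192 regions (15.1%) recurred in all. Median pileups there were 7, 5 and 5.5 fragments in replicates 1, 2 and 3. From 50 to 60 Mb, 8 regions were each found in 1 replicate. The stretch from 60 to 100 Mb held 18 regions and 5 of the 29 recurrent ones. The last peaks before the limit of the arm lay at 121.116 Mb in replicate 1, 121.117 Mb in replicate 2 and 116.927 Mb in replicate 3, with pileups of 4, 6 and 6. The next peaks lay at 144.164, 143.916 and 142.69 Mb, with pileups of 5, 9 and 5. How much of the stretch without peaks is unsequenced was not examined.

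Some deep peaks were found in 1 list. Replicate 3 alone had a peak from 43163126 to 43166198 with a pileup of 31 and a fold of 2.03, at an expected level of 14.8, 4619 bp from the nearest peak of another list. In replicate 2 a peak from 35657831 to 35658490 had a pileup of 30 and a fold of 3.62, 3343 bp from the nearest peak of another list. Both lie beside recurrent regions, those that start at 43148506 and 35652845. Replicate 3 also had a peak from 9790697 to 9791176 with a pileup of 15 and a fold of 2.62. Farther from any other peak were one in replicate 2, from 8415619 to 8416572, with a pileup of 12 and a fold of 8.21, and one in replicate 1, from 22413496 to 22417780, with a pileup of 12 and a fold of 4.23. A pileup of 12 has an exact 95% Poisson interval of 6.20 to 20.96.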
